A study of Mus musculus with 21 samples.

Results

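The Etv2 reporter effect was compared between PDGFRalpha-negative and PDGFRalpha-positive FLK1-expressing cells of day 4 mouse embryoid bodies. These are aggregates of differentiating embryonic stem cells. The effect is the difference between cells positive and negative for the Etv2-tdTomato reporter, called Etv2-positive and Etv2-negative cells here. The comparison used all 12 libraries of the reporter line, 3 in each of 4 groups, out of 21 libraries in the series. For every gene the log2 fold change of Etv2-positive over Etv2-negative cells in DP was subtracted from the same fold change in SP. This difference of differences is called the interaction here: a positive value means that the reporter effect was higher in SP than in DP, and a negative value that it was higher in DP.

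The 4 groups came from a T-GFP;Etv2-tdTomato embryonic stem cell line sorted on day 4: SP Etv2-positive, SP Etv2-negative, DP Etv2-positive and DP Etv2-negative cells. SP cells carried FLK1 without PDGFRalpha and DP cells carried both receptors. Whether cells were also gated on T-GFP is not given in the labels, and neither is the origin of the replicates from separate cultures, so p-values measure the spread between these samples, which may be technical. The remaining 9 libraries, used only for a closing comparison, were SP cells of the iEtv2 line treated with doxycycline at 2 µg/ml on day 2.5, and SP and DP cells of the wildtype line A2lox.Cre. Doxycycline is named only for iEtv2, which is a different line from the wildtype and has no untreated group here. The agent, the line and induced Etv2 therefore cannot be told apart there. A change with induced Etv2 means iEtv2 SP over WT SP cells throughout. In bulk RNA, fewer cells of a type and less RNA per cell cannot be told apart either.

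Library totals ran between 25045553 and 32777143 counts assigned to genes, so that a floor of 3 counts stood at 0.0904 to 0.118 CPM, the count of a gene scaled to the size of its library. Ribosomal RNA took 1.28% of the counts in SP Etv2-positive replicate 3 and 1.40% in SP Etv2-negative replicate 2, against at most 0.432% in the other 10 libraries. Replicates correlated at 0.99 to 0.994 over log CPM, and no libraries were identical.

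Etv2 encodes an ETS-family transcription factor that is required for the endothelial and blood lineages and acts for a short time in mesoderm. FLK1, the product of Kdr, is a receptor for vascular endothelial growth factor (VEGF) on mesoderm that can give rise to vessel, blood, heart and smooth muscle cells. PDGFRalpha is a receptor for platelet-derived growth factor that is kept in paraxial and cardiac mesoderm and lost in cells that turn to blood and endothelium.

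The genes behind the sort did not pass the test of the interaction. Etv2 (ENSMUSG00000006311, chromosome 7, 30633616 to 30635852, minus strand in mm10) stood at 79.6, 109 and 78.7 CPM in SP Etv2-positive cells and 27.7, 26.5 and 25.6 CPM in SP Etv2-negative cells. It stood at 58.1, 68.9 and 48.3 CPM in DP Etv2-positive cells and 23.2, 19.4 and 18.1 CPM in DP Etv2-negative cells. Cells called Etv2-negative after the reporter thus still held Etv2 RNA. In both gates every Etv2-positive library lay above every Etv2-negative one, by 1.74 ± 0.14 on the log2 scale in SP and 1.53 ± 0.15 in DP. The interaction of Etv2 was 0.21 ± 0.20 (edgeR quasi-likelihood, Benjamini-Hochberg adjusted p = 0.623). None of the 22 alternative settings called it. Among Etv2-positive cells its level averaged 88.96 ± 17.00 CPM in SP and 58.4 ± 10.3 CPM in DP (SD, n = 3 each).

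Pdgfra averaged 37.5 ± 10.99 CPM in SP Etv2-positive and 51.7 ± 9.22 CPM in SP Etv2-negative cells, against 149.8 ± 22.6 and 253 ± 34.9 CPM in the DP counterparts (SD, n = 3 each). Its level followed the gate, was not at 0 in SP, and had an interaction of 0.29 ± 0.27 (edgeR quasi-likelihood, Benjamini-Hochberg adjusted p = 0.613). Kdr stood at 599.6, 631 and 580.1 CPM in SP Etv2-positive cells and 521, 543 and 514 CPM in SP Etv2-negative cells, against 439.5, 533 and 340.2 CPM in DP Etv2-positive cells and 608, 615 and 537 CPM in DP Etv2-negative cells. Etv2-positive libraries were the higher ones in SP and the lower ones in DP, without overlap. Its interaction of 0.62 ± 0.17 missed the threshold (edgeR quasi-likelihood, Benjamini-Hochberg adjusted p = 0.057), but passed in 7 of 22 alternatives, among them the fit with replicates as blocks within each gate (0.64 ± 0.09, adjusted p = 0.000807). T, the Brachyury gene of nascent mesoderm, stood at 57.9, 62.5 and 39.7 CPM in SP Etv2-positive cells and 68.8, 79.4 and 38.99 CPM in SP Etv2-negative cells, and at 46.1, 43.9 and 23.5 CPM in DP Etv2-positive cells and 126, 114 and 70.5 CPM in DP Etv2-negative cells, so that only the DP groups did not overlap. It had an interaction of 1.23 ± 0.42 (edgeR quasi-likelihood, Benjamini-Hochberg adjusted p = 0.121), which passed in 4 of 22 alternatives, the blocks within gates included (1.27 ± 0.10, adjusted p = 3.5e-05).

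Of 17690 genes tested, 702 had a reporter effect that differed between SP and DP, 3.97% of the genes tested (edgeR quasi-likelihood, Benjamini-Hochberg adjusted p below 0.05). The interaction was positive for 269 genes (1.52% of genes tested) and negative for 433 (2.45%). A difference of at least 2-fold was seen for 86 of the positive and 183 of the negative genes. The reporter effect itself was called for 4504 genes in SP (25.5% of genes tested, with 2314 higher in Etv2-positive cells, 13.1%, and 2190 lower, 12.4%) and for 5435 in DP (30.7%, with 2827 higher, 16.0%, and 2608 lower, 14.7%). For all 702 genes the 3 same-numbered log2 differences of SP lay entirely to a single side of the 3 of DP, as they did for 33.1% of all genes tested (16.2% above and 16.9% below). With replicates as blocks within each gate the interaction count was 2334 genes (960 positive, 1374 negative), and all 702 genes remained called. Without both libraries of high ribosomal RNA share it was 119 genes (44 positive, 75 negative), of which 118 were among the 702. Every called gene kept the sign of its interaction in each alternative setting in which it was tested.

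**Figure D1:**
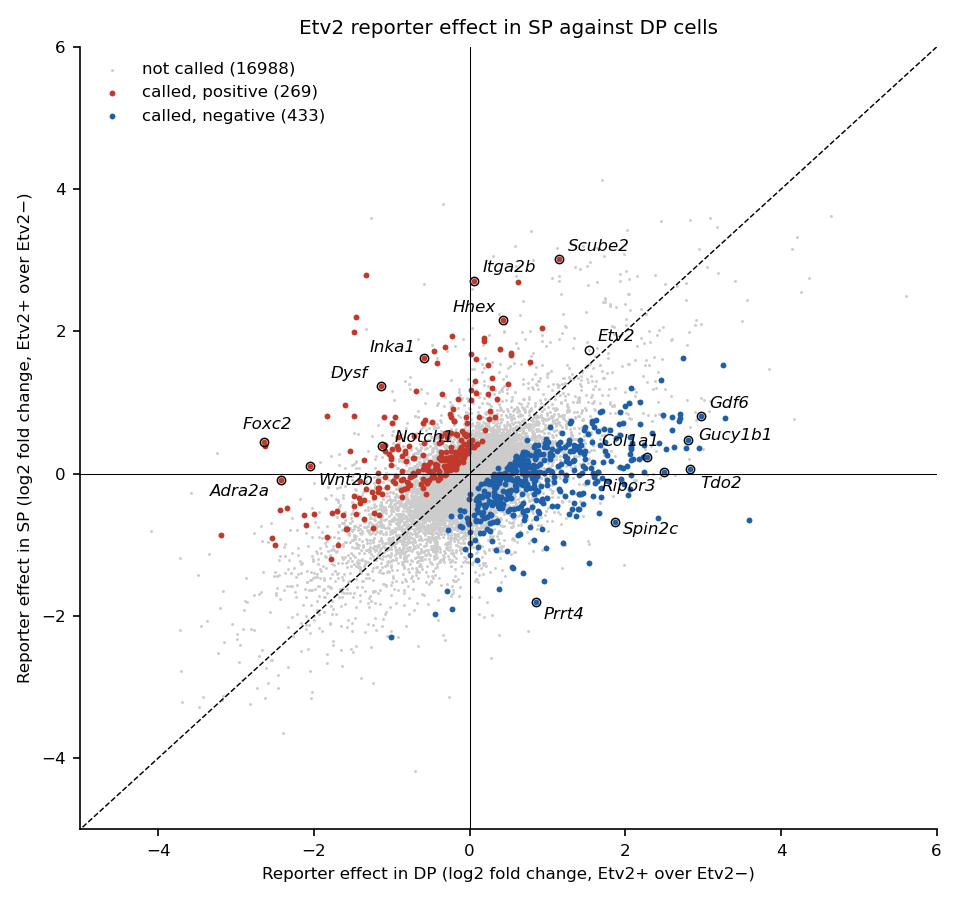
Reporter effect in SP (vertical axis) against DP (horizontal axis), both as log2 fold changes of Etv2-positive over Etv2-negative cells, for all 17690 genes tested; points are genes, and the dashed line marks equal effects. The 269 genes with a positive interaction lie above the line and the 433 with a negative one below it, while Etv2, circled but not called, lies near the line at 1.74 in SP and 1.53 in DP.

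More of the called genes had a reporter effect that passed in DP alone than in SP alone. Over the 433 negative genes the median reporter effect was -0.05 in SP and 0.80 in DP on the log2 scale, and over the 269 positive genes it was 0.22 in SP and -0.37 in DP, beside a median interaction of -0.01 over all genes tested. The reporter effect was called in DP alone for 395 of the 702 genes, in SP alone for 166 and in both gates for 141. Over all 17690 genes tested DP alone was also the larger set. It held 2895 genes, against 1964 in SP alone and 2540 in both gates. Of the negative genes, 224 had a fold change below 0 in SP and above 0 in DP, 193 were above 0 in both with the larger value in DP, and 16 were below 0 in both with the larger fall in SP. Of the positive genes, 159 were above 0 in SP and below 0 in DP, 70 were below 0 in both with the larger fall in DP, and 40 were above 0 in both with the larger value in SP. Such classes by sign were not counted over all genes tested, so they only describe the called genes.

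The sign of the interaction favours certain groups as the extreme of the 4, so the next counts only describe. DP Etv2-negative cells had the lowest mean for 324 negative genes (74.8%, against 30.8% of all genes tested), and DP Etv2-positive cells the highest for 315 (72.7%, against 22.7%). Among positive genes the lowest mean was in DP Etv2-positive cells for 173 (64.3%, against 21.4% of all genes tested). The highest mean of the positive genes was in SP Etv2-positive cells for 127 (47.2%, against 29.3%) and in DP Etv2-negative cells for 141 (52.4%, against 30.6%). Single libraries moved with these patterns: DP Etv2-negative replicate 3 was the highest of its 3 replicates for 357 of 433 negative genes (82.4%), against 38.1% of all genes tested. SP Etv2-positive replicate 3 was the highest of its group for 152 of 269 positive genes (56.5%, against 36.1% of all genes tested). Without DP Etv2-negative replicate 3 1268 genes were called, of which 664 were among the 702.

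The largest positive interaction among the genes named by rule was that of Foxc2 (ENSMUSG00000046714, chromosome 8, 121116171 to 121118895, plus strand in mm10), a forkhead transcription factor of paraxial mesoderm and developing vessels. Foxc2 stood at 1.73, 2.71 and 3.39 CPM in SP Etv2-positive cells and 1.97, 2.24 and 1.53 CPM in SP Etv2-negative cells. DP libraries held 1.54, 1.91 and 1.92 CPM in DP Etv2-positive cells and 10.1, 10.7 and 12.96 CPM in DP Etv2-negative cells. The 3 DP Etv2-negative libraries were far above the other 9, which lay close together. The reporter effect was 0.45 ± 0.23 in log2 units in SP (edgeR quasi-likelihood, Benjamini-Hochberg adjusted p = 0.171) and -2.64 ± 0.21 in DP (adjusted p = 4.32e-06), and the interaction 3.09 ± 0.31 (adjusted p = 0.00362). The call of Foxc2 passed in all 22 alternatives. Fgf4, a fibroblast growth factor of the early embryo, had the same shape, with 1.03, 1.63 and 1.85 CPM in SP Etv2-positive, 2.12, 2.31 and 2.01 in SP Etv2-negative, 0.735, 1.12 and 1.05 in DP Etv2-positive and 5.41, 5.695 and 4.81 CPM in DP Etv2-negative cells. Its DP Etv2-negative libraries did not overlap any other group, and its interaction of 1.93 ± 0.30 was called in all 22 alternatives.

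Itga2b encodes integrin alpha IIb (CD41), an early surface marker of blood-forming cells and a platelet adhesion receptor. Itga2b (ENSMUSG00000034664, chromosome 11, 102453297 to 102470122, minus strand in mm10) stood at 6.19, 6.49 and 19.9 CPM in SP Etv2-positive cells and 1.33, 1.398 and 2.25 CPM in SP Etv2-negative cells. Its DP levels were 0.809, 0.899 and 1.49 CPM in DP Etv2-positive cells and 0.9797, 1.08 and 1.04 CPM in DP Etv2-negative cells. All 3 SP Etv2-positive libraries were above the other 9, with replicate 3 about 3 times as high as the others. Its interaction of 2.65 ± 0.68 just passed (edgeR quasi-likelihood, Benjamini-Hochberg adjusted p = 0.0489) and was lost in 10 of the 12 fits that left out a library and in 2 other alternatives, with adjusted p up to 0.136.

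Dysf, which encodes the membrane-repair protein dysferlin, moved in opposite directions in the 2 gates. Dysf (ENSMUSG00000033788, chromosome 6, 84008590 to 84211060, plus strand in mm10) stood at 8.03, 11.1 and 15.7 CPM in SP Etv2-positive cells and 4.27, 5.88 and 4.64 CPM in SP Etv2-negative cells. Among DP cells there were 2.13, 2.59 and 3.94 CPM in DP Etv2-positive cells and 6.19, 8.11 and 4.95 CPM in DP Etv2-negative cells. Etv2-positive libraries were the higher ones in SP and the lower ones in DP, with no overlap in either gate. The effect was 1.23 ± 0.26 in log2 units in SP (edgeR quasi-likelihood, Benjamini-Hochberg adjusted p = 0.00485) and -1.14 ± 0.28 in DP (adjusted p = 0.00788), and the interaction 2.37 ± 0.38 (adjusted p = 0.0132) was lost only without DP Etv2-negative replicate 2 (adjusted p = 0.0506).

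The other genes among the 12 largest positive interactions were of 2 kinds. Inka1, an inhibitor of the kinase PAK4, Scube2, a secreted protein that binds VEGF receptor complexes and Hedgehog ligands, Hhex, a homeobox factor, Lrrc4, a synaptic adhesion protein, and Ramp2, a partner of the adrenomedullin receptor, rose with the reporter in SP. Their reporter effects in SP were 1.62, 3.02, 2.16, 1.91 and 1.86, against -0.59, 1.15, 0.43, 0.19 and 0.18 in DP. Wnt2b, a Wnt ligand, Adra2a, an adrenergic receptor, and Lfng, a glycosyltransferase that modifies Notch receptors, instead fell with the reporter in DP, with effects of -2.05 ± 0.34, -2.42 ± 0.35 and -2.35 ± 0.27 on the log2 scale there, and had SP effects that did not pass, of 0.11, -0.09 and -0.49. Ramp2 is uncertain because only 26.6% of its 50-base windows were unique and 33.4% of its exon length overlaps Vps25 on the same strand.

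**Figure D2:**
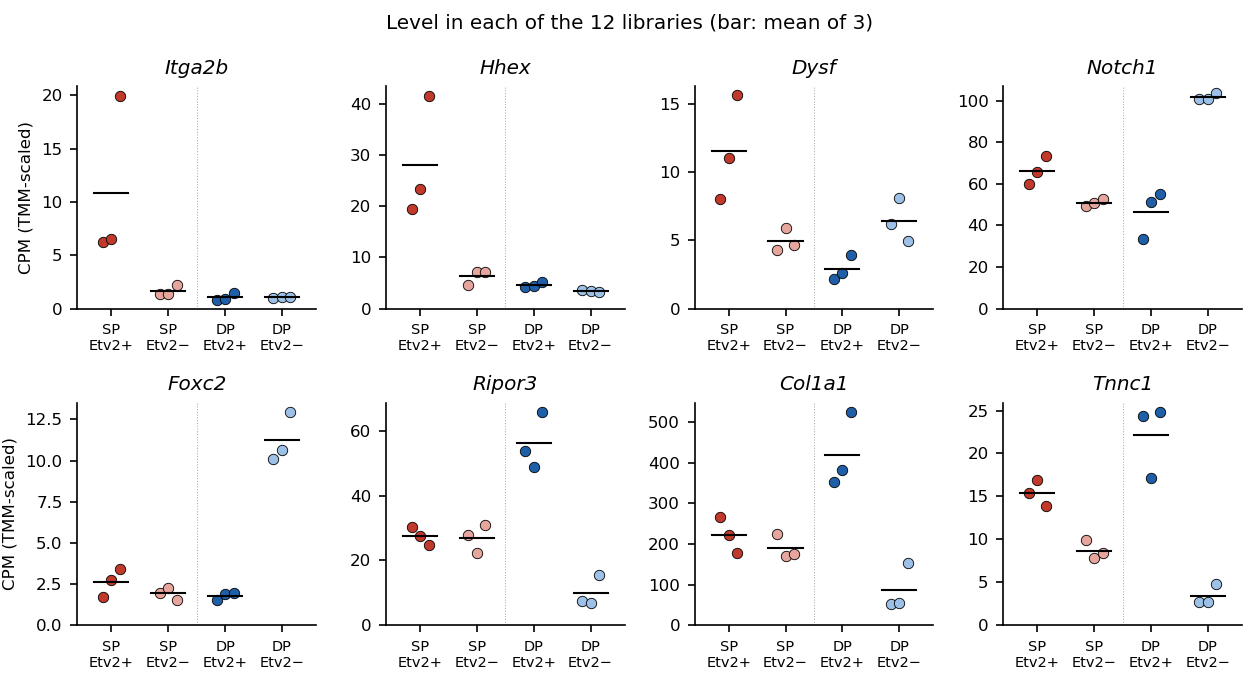
Level of 8 genes in each of the 12 reporter-line libraries, in TMM-scaled CPM on a linear axis; points are libraries and bars the means of 3. Itga2b and Hhex were highest in SP Etv2-positive cells, Notch1 and Foxc2 in DP Etv2-negative cells, and Ripor3, Col1a1 and Tnnc1 were lowest in DP Etv2-negative and highest in DP Etv2-positive cells.

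Among the negative genes named by rule, with at least 5 CPM in some group, the largest interaction was that of Tdo2, which encodes a tryptophan-degrading dioxygenase. Tdo2 (ENSMUSG00000028011, chromosome 3, 81957090 to 81976202, minus strand in mm10) stood at 4.72, 3.49 and 4.899 CPM in SP Etv2-positive cells and 4.303, 2.37 and 5.93 CPM in SP Etv2-negative cells. The DP gate gave 10.4, 7.87 and 17.1 CPM in DP Etv2-positive cells and 0.862, 0.934 and 3.16 CPM in DP Etv2-negative cells. The SP groups overlapped and the DP groups did not, although DP Etv2-negative replicate 3 stood above the others. Its interaction of -2.77 ± 0.62 (edgeR quasi-likelihood, Benjamini-Hochberg adjusted p = 0.0336) lost its call in 8 of the 12 fits that left out a library, with adjusted p up to 0.0984.

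Ripor3, Spin2c of the spindlin family, Col8a2, a type VIII collagen chain, and Tnnc1, cardiac troponin C, were the negative genes named by rule whose call passed in all 22 alternatives. Ripor3 (ENSMUSG00000074577, chromosome 2, 167980164 to 168010618, minus strand in mm10) stood at 30.4, 27.5 and 24.6 CPM in SP Etv2-positive cells and 27.8, 22.3 and 31.1 CPM in SP Etv2-negative cells. In DP it stood at 53.9, 48.8 and 65.9 CPM in DP Etv2-positive cells and 7.37, 6.81 and 15.6 CPM in DP Etv2-negative cells. The SP libraries of both kinds lay between the DP groups, below all 3 DP Etv2-positive and above all 3 DP Etv2-negative libraries. The effect was 0.03 ± 0.24 in SP and 2.50 ± 0.25 in DP on the log2 scale, and the interaction -2.48 ± 0.34 (edgeR quasi-likelihood, Benjamini-Hochberg adjusted p = 0.0106). Spin2c, Col8a2 and Tnnc1 had interactions of -2.54 ± 0.38, -2.10 ± 0.36 and -1.87 ± 0.29.

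Prrt4 was the exception among the largest negative genes, because it changed in SP. It stood at 3.096, 2.67 and 2.501 CPM in SP Etv2-positive and 7.92, 6.96 and 14.02 CPM in SP Etv2-negative cells, without overlap, an effect of -1.80 ± 0.33 in log2 units (edgeR quasi-likelihood, Benjamini-Hochberg adjusted p = 0.00192). The DP effect of 0.85 ± 0.32 did not pass (adjusted p = 0.06). The remaining genes among the 12 largest were Extl1, an exostosin-like glycosyltransferase, Gucy1b1, the beta subunit of the nitric oxide receptor, Gdf6, a bone morphogenetic protein (BMP) family ligand, Rem1, a small GTPase, Col1a1, the type I collagen chain, Pkp2, a desmosome protein, and Slc1a6, a glutamate transporter. Their interactions ran between -2.43 and -2.00, their DP effects between 1.94 and 2.98, all called, and their SP effects between -0.14 and 0.81, none of which passed.

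Promoters are shown for the 2 largest genes in each direction among those named by rule, which asks for a mean of at least 5 CPM in some group, that have an entry in the promoter table of RefSeq (GRCm38.p6). They were scanned because Etv2 is an ETS factor. Each runs from 250 bases before to 50 bases after a RefSeq start, 5′ to 3′ on the strand of the gene. Capitals mark matches on either strand to any of 4 motifs. The letters searched for ETS factors were CNGGAAG. For GATA factors they were AGATAA, for E-box factors CAGNTG, and for forkhead factors TGTTTAC. Itga2b lies at chr11:102469834-102470133, minus strand, Dysf at chr6:84008348-84008647, plus strand, Tdo2 at chr3:81975679-81975978, minus strand, and Prrt4 at chr6:29179535-29179834, minus strand. The RefSeq start of Itga2b was 239 bases and that of Tdo2 474 bases from the start used for the counts.
Itga2b: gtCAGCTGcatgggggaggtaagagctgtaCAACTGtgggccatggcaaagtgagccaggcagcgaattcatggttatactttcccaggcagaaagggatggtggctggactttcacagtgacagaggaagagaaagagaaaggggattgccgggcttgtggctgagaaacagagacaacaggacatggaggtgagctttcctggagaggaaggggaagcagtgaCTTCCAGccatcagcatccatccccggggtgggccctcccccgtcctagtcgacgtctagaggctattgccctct
Dysf: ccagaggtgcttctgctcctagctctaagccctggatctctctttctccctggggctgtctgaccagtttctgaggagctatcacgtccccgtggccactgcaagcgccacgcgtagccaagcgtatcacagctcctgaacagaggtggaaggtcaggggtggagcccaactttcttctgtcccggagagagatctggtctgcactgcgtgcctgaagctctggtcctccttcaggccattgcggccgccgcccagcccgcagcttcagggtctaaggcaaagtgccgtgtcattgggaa
Tdo2: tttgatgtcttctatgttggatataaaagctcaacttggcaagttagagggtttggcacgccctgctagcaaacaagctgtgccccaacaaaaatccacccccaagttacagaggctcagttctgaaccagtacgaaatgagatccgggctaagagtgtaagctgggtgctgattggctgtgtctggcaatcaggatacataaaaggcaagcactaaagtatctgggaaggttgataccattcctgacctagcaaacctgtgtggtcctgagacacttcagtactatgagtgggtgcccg
Prrt4: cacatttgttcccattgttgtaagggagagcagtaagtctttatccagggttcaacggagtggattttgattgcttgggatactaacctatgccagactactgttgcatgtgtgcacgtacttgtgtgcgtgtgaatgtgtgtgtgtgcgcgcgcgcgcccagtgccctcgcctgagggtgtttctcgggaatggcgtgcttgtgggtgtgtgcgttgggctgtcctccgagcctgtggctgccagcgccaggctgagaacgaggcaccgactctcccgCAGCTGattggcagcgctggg

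The Itga2b window held 1 ETS and 2 E-box matches, the Prrt4 window 1 E-box match, and the Dysf and Tdo2 windows none of the 4 motifs. Of 32851 promoters in the table, 31.9% held the ETS letters, 11.2% GATA, 51.4% E-box and 3.65% forkhead. Of the 253 promoters of 176 positive genes with an entry, 35.6% held ETS, 5.53% GATA, 44.3% E-box and 1.19% forkhead letters. Of the 413 promoters of 308 negative genes, 31.2%, 7.26%, 47.9% and 1.69% held them in the same order. The table covers 27025 genes, more than the 17690 tested, so its shares include genes that could not be called. Shares over the tested genes alone were not counted. A match is a description of the letters, not a bound site.

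In 44 of the 2540 genes whose reporter effect was called in both gates the directions were opposite, and all 44 were among the 702. That overlap follows almost by construction, because called effects in opposite directions add up in the interaction. The other 2496 moved the same way, 1259 higher and 1237 lower in Etv2-positive cells. Of the 44, 25 fell in SP and rose in DP, and 19 rose in SP and fell in DP. Tbx2 and Hand1, transcription factors of cardiac and lateral plate mesoderm, belonged to the 25, as did Slc40a1, which encodes the iron exporter ferroportin, and Peg10, an imprinted gene of retrotransposon origin. Hand1 stood at 566, 484 and 444 CPM in SP Etv2-positive cells and 701, 624 and 719 CPM in SP Etv2-negative cells, with no overlap. DP libraries held 634, 561 and 735 CPM in DP Etv2-positive cells and 427, 404 and 612 CPM in DP Etv2-negative cells, where replicate 3 of the Etv2-negative cells, at 612 CPM, overlapped the Etv2-positive range. The effects of Hand1 were -0.45 ± 0.15 in SP and 0.42 ± 0.15 in DP (edgeR quasi-likelihood, Benjamini-Hochberg adjusted p = 0.0364 and 0.0432). Its interaction of -0.87 ± 0.21 (adjusted p = 0.0371) was lost in 8 of 12 fits that left out a library, with adjusted p up to 0.102.

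Mycn, a growth-promoting Myc-family factor, Sall3, a spalt-like zinc finger factor, and Phf6, a chromatin-associated PHD finger protein, belonged with Dysf to the 19 genes that rose in SP and fell in DP. These 3 and Slc40a1, Peg10 and Hand1 were chosen after their values were seen. Mycn stood at 166, 153 and 131 CPM in SP Etv2-positive cells and 110.3, 115 and 106 CPM in SP Etv2-negative cells. Its DP levels were 136, 135 and 119 CPM in DP Etv2-positive cells and 174, 169 and 159 CPM in DP Etv2-negative cells. Neither gate had overlapping groups, and the interaction was 0.81 ± 0.12 (edgeR quasi-likelihood, Benjamini-Hochberg adjusted p = 0.0106). The interactions were 0.88 ± 0.13 for Sall3, 1.01 ± 0.14 for Phf6 and -1.49 ± 0.21 for Slc40a1, and the calls of these 3 and of Mycn passed in all 22 alternatives.

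Of 26 endothelial genes tested, 4 had a positive interaction and 0 a negative one, beside 1.52% and 2.45% of all genes tested: Flt1 and Flt4, which encode VEGF receptors 1 and 3, the adaptor She, and Ramp2. The positive count was 9 with replicates as blocks within gates, 1 without both high ribosomal RNA libraries and 1 without DP Etv2-negative replicate 2, and without replicate 3 of that group 6 positive and 1 negative were called. Blocks within gates raised the calls over all 17690 genes tested as well, to 960 positive and 1374 negative. Counts of every list below are to be read beside these and beside the 1.52% and 2.45%. All lists were drawn up with earlier results of these data known, so their counts only describe. Median log2 values of the 26 were 0.56 in the interaction, 1.51 in SP and 0.78 in DP, against -0.01 for the interaction of all genes tested. The summed level of the list was 971 to 1173 CPM in SP Etv2-positive and 696 to 761 CPM in SP Etv2-negative cells, against 569 to 741 CPM in DP Etv2-positive and 707 to 765 CPM in DP Etv2-negative cells. Most of each sum was Kdr, with 340 to 533 CPM in DP Etv2-positive and 537 to 615 CPM in DP Etv2-negative cells. By gene, 21 of the 26 rose and 0 fell with the reporter in SP, and 12 rose and 3 fell in DP. Over all genes tested 13.1% rose and 12.4% fell in SP, and 16.0% rose and 14.7% fell in DP. Emcn and Lyve1, markers of later endothelium, reached at most 0.147 and 0.155 CPM in any library.

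She stood at 9.43, 11.8 and 10.5 CPM in SP Etv2-positive cells and 7.996, 9.72 and 9.18 CPM in SP Etv2-negative cells, groups that overlapped. Among DP cells there were 5.77, 7.19 and 5.702 CPM in DP Etv2-positive cells and 10.9, 14.1 and 12.4 CPM in DP Etv2-negative cells, without overlap. Its interaction of 1.24 ± 0.19 (edgeR quasi-likelihood, Benjamini-Hochberg adjusted p = 0.013) stood beside effects of 0.24 ± 0.13 in SP and -1.01 ± 0.13 in DP, of which the DP effect passed, and was called in all 22 alternatives. Flt1 stood at 22.9, 28.9 and 43.99 CPM in SP Etv2-positive cells and 16.9, 17.7 and 22.2 CPM in SP Etv2-negative cells. The DP gate gave 9.01, 12.3 and 14.5 CPM in DP Etv2-positive cells and 19.7, 18.2 and 15.7 CPM in DP Etv2-negative cells. Neither gate overlapped: Etv2-positive libraries were higher in SP and lower in DP, although the DP effect of -0.58 ± 0.22 did not pass. The interaction of Flt1 was 1.33 ± 0.31 (adjusted p = 0.0352) and was lost in 9 of 12 fits that left out a library, with adjusted p up to 0.0992.

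Flt4 rose in both gates, by 1.26 ± 0.13 in SP and 0.49 ± 0.14 in DP on the log2 scale, with an interaction of 0.77 ± 0.19 (edgeR quasi-likelihood, Benjamini-Hochberg adjusted p = 0.0457), lost in 10 of 12 such fits. Among the 10 VEGF pathway genes the ligand gene Vegfc went the other way, with an interaction of -0.98 ± 0.21. Vegfc stood at 22.00, 28.4 and 21.2 CPM in SP Etv2-positive cells and 16.5, 20.9 and 22.5 CPM in SP Etv2-negative cells, groups that overlapped. Its DP levels, without overlap, were 32.9, 35.3 and 34.7 CPM in DP Etv2-positive cells and 11.8, 14.4 and 17.5 CPM in DP Etv2-negative cells. Flt4, the receptor for this ligand, had the larger reporter effect in SP, and Vegfc in DP. With blocks within gates 5 positive and 2 negative VEGF pathway genes were called.

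Of 13 arterial and Notch genes tested, Notch1 had a positive and the netrin receptor gene Unc5b a negative interaction, and with blocks within gates 4 were positive and 2 negative. Notch1 (ENSMUSG00000026923, chromosome 2, 26457903 to 26516663, minus strand in mm10) stood at 59.9, 65.9 and 73.4 CPM in SP Etv2-positive cells and 49.2, 50.7 and 52.6 CPM in SP Etv2-negative cells. In DP it stood at 33.7, 51.1 and 55.04 CPM in DP Etv2-positive cells and 101, 101 and 104 CPM in DP Etv2-negative cells. The DP Etv2-negative libraries were above all 9 others, and in SP the Etv2-positive libraries were above the Etv2-negative ones. The SP effect of 0.39 ± 0.13 missed the threshold (edgeR quasi-likelihood, Benjamini-Hochberg adjusted p = 0.0515), the DP effect was -1.12 ± 0.14 (adjusted p = 6.38e-05), and the interaction 1.51 ± 0.19 (adjusted p = 0.00967) passed in all 22 alternatives. With 86.3% of its windows unique and antisense genes overlapping 9.76% of its exons, Notch1 is subject to the unstated strand setting of the counting.

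Aplnr, the apelin receptor gene of mesoderm and veins, was the called gene among 5 venous genes tested (2 with blocks within gates, both positive), with an interaction of 1.08 ± 0.14 (edgeR quasi-likelihood, Benjamini-Hochberg adjusted p = 0.0106) that passed in all 22 alternatives. It stood at 101, 104 and 132 CPM in SP Etv2-positive cells and 115, 119 and 127 CPM in SP Etv2-negative cells, groups that overlapped, and at 85.97, 88.6 and 89.7 CPM in DP Etv2-positive cells and 229, 189 and 183 CPM in DP Etv2-negative cells, with the DP Etv2-negative libraries above all others. Nfatc1, a calcium-regulated factor of endocardium, and F2r, the thrombin receptor gene, were chosen after their values were seen. Nfatc1 stood at 38.99, 45.1 and 52.1 CPM in SP Etv2-positive cells and 20.6, 22.9 and 18.96 CPM in SP Etv2-negative cells and at 20.9, 26.2 and 21.3 CPM in DP Etv2-positive cells and 29.4, 32.9 and 25.01 CPM in DP Etv2-negative cells. Its SP groups did not overlap and its DP groups did, and the interaction was 1.48 ± 0.18. F2r rose by 1.52 ± 0.16 in SP, with a DP effect of 0.23 ± 0.15 that did not pass and an interaction of 1.29 ± 0.22.

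Blood transcription factor genes showed 3 positive interactions among 17 tested, beside 1.52% of all genes tested: Hhex, Gata2 and Zfpm1, which encodes the GATA cofactor FOG-1. With blocks within gates 7 were positive and 1 negative, and the positive count was 1 without both high ribosomal RNA libraries and 0 without DP Etv2-negative replicate 2. Median log2 values of the 17 were 0.83 in the interaction, 2.16 in SP and 1.15 in DP. Their summed level was 700 to 1054 CPM in SP Etv2-positive and 317 to 382 CPM in SP Etv2-negative cells, against 328 to 331 CPM in DP Etv2-positive and 287 to 311 CPM in DP Etv2-negative cells. Most of each DP sum was Zfpm1, with means of 231 CPM in DP Etv2-positive and 249 CPM in DP Etv2-negative cells. Its DP effect of -0.11 ± 0.09 did not pass, so the DP sums say little about the other members. In SP it averaged 329 CPM in Etv2-positive and 237 CPM in Etv2-negative cells.

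Hhex stood at 19.4, 23.4 and 41.7 CPM in SP Etv2-positive cells and 4.55, 7.25 and 7.09 CPM in SP Etv2-negative cells. DP libraries held 4.27, 4.46 and 5.21 CPM in DP Etv2-positive cells and 3.68, 3.495 and 3.23 CPM in DP Etv2-negative cells. Both gates were without overlap, and SP Etv2-positive cells stood above all others, with replicate 3 the highest. It rose by 2.16 ± 0.25 on the log2 scale in SP, the DP effect was 0.43 ± 0.28 (adjusted p = 0.286) and the interaction 1.73 ± 0.37 (edgeR quasi-likelihood, Benjamini-Hochberg adjusted p = 0.0294), lost in 5 of 12 fits that left out a library. Gata2, a zinc finger factor of blood stem and progenitor cells, stood at 63.8, 71.4 and 104 CPM in SP Etv2-positive cells and 13.4, 21.9 and 22.3 CPM in SP Etv2-negative cells. Its DP levels were 14.5, 14.1 and 17.3 CPM in DP Etv2-positive cells and 8.23, 8.497 and 7.34 CPM in DP Etv2-negative cells. It rose in both gates, more in SP, with an interaction of 1.12 ± 0.29 (adjusted p = 0.0481), lost in 10 of 12 such fits with adjusted p up to 0.136.

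Of 12 blood surface and signalling genes tested, Itga2b and Plcg2, a phospholipase of blood cell receptor signalling, had positive interactions, of 2.65 ± 0.68 and 0.95 ± 0.24. Without both high ribosomal RNA libraries neither was called, and with blocks within gates 3 positive and 0 negative genes of the list were. Ptprc, which encodes the pan-leukocyte antigen CD45, reached at most 0.0371 CPM, below the floor of 3 counts. Among 4 primitive erythroid genes tested, edgeR quasi-likelihood called 0 interactions, limma-voom 0 and DESeq2 1, with 1 gene at an unadjusted p below 0.05 and 1 positive call with blocks within gates. Their summed level was 6.86 to 24.4 CPM in SP Etv2-positive and 0.861 to 2.56 CPM in SP Etv2-negative cells, against 0.552 to 1.46 CPM in DP Etv2-positive and 0.603 to 0.745 CPM in DP Etv2-negative cells. The SP Etv2-positive libraries were thus the highest, and the part of blood cells in the interaction was not tested.

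Of 16 lateral plate and extraembryonic mesoderm genes tested, 7 had a negative interaction and 0 a positive one, beside 2.45% and 1.52% of all genes tested: Ahnak, Bmp5, Tbx2, Foxf1, Msx2, Hand1 and Msx1. Ahnak, with the largest interaction of the 7, is not particular to this mesoderm and is grouped with cytoskeleton genes further below. The list, like the others, was drawn up with earlier results of these data known. With blocks within gates 10 were negative and 1 positive, and the negative count was 2 without both high ribosomal RNA libraries, 0 without DP Etv2-negative replicate 2 and 11 without replicate 3 of that group. Median log2 values of the 16 were -0.93 in the interaction, -0.23 in SP and 0.59 in DP. The list summed to 1654 to 2325 CPM in SP Etv2-positive and 2108 to 2448 CPM in SP Etv2-negative cells, against 2345 to 2806 CPM in DP Etv2-positive and 1293 to 1862 CPM in DP Etv2-negative cells. Ahnak averaged 651 CPM in SP Etv2-positive and 502 CPM in SP Etv2-negative cells, and 810 and 193 CPM in the DP counterparts. Its difference of 617 CPM between the DP groups was a large part of the difference between the DP sums.

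Tbx2 (ENSMUSG00000000093, chromosome 11, 85832551 to 85841948, plus strand in mm10), a repressor of the T-box family, stood at 66.5, 58.4 and 43.96 CPM in SP Etv2-positive cells and 81.1, 81.6 and 82.8 CPM in SP Etv2-negative cells. Among DP cells there were 83.5, 73.5 and 61.1 CPM in DP Etv2-positive cells and 41.4, 39.1 and 55.3 CPM in DP Etv2-negative cells. Neither gate overlapped, and the order of the groups was reversed between them. Its interaction was -1.22 ± 0.22 (edgeR quasi-likelihood, Benjamini-Hochberg adjusted p = 0.0167), lost only without DP Etv2-negative replicate 2 (adjusted p = 0.0558). Foxf1, a forkhead factor of splanchnic mesoderm, and Msx1, a homeobox factor downstream of BMP signals, fell in SP, with effects of -0.67 ± 0.15 and -0.63 ± 0.11 on the log2 scale, while their DP effects of 0.35 ± 0.15 and 0.18 ± 0.11 did not pass. Msx2, the second Msx homeobox factor, had -0.22 ± 0.15 in SP, which did not pass, and 0.72 ± 0.15 in DP. Bmp5 is uncertain, since 51.6% of its windows were unique and an antisense gene overlaps 46.7% of its exons.

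Of 18 BMP pathway genes tested, 6 had a negative interaction and 0 a positive one, beside 2.45% and 1.52% of all genes tested. Called were the ligand genes Gdf6 and Bmp5, the pseudoreceptor gene Bambi, the inhibitory Smad genes Smad6 and Smad7, and the BMP target Id3. Of these only Bmp5 is also on the lateral plate list. With blocks within gates 10 were negative and 1 positive, and the negative count was 1 without both high ribosomal RNA libraries, 0 without DP Etv2-negative replicate 2 and 11 without replicate 3 of that group. Gdf6 stood at 10.9, 8.12 and 5.52 CPM in SP Etv2-positive cells and 6.63, 3.22 and 4.23 CPM in SP Etv2-negative cells, groups that overlapped. The DP gate gave 17.4, 16.9 and 21.4 CPM in DP Etv2-positive cells and 1.65, 2.05 and 3.33 CPM in DP Etv2-negative cells, without overlap, and its interaction was -2.17 ± 0.42 (edgeR quasi-likelihood, Benjamini-Hochberg adjusted p = 0.0222).

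Smad6, which is induced by BMP signals and dampens them, rose in both gates but less in SP. It stood at 200.03, 197 and 186 CPM in SP Etv2-positive cells and 145, 141 and 144 CPM in SP Etv2-negative cells. In DP it stood at 216, 188 and 212 CPM in DP Etv2-positive cells and 102, 91.5 and 114 CPM in DP Etv2-negative cells. The groups did not overlap in either gate, and the interaction was -0.56 ± 0.11 (edgeR quasi-likelihood, Benjamini-Hochberg adjusted p = 0.0213). Id3 rose in both gates as well, by 0.43 ± 0.10 in SP and 0.97 ± 0.10 in DP on the log2 scale. Smad7 and Bambi rose in DP, by 0.46 ± 0.07 and 0.48 ± 0.11, and their SP effects of -0.05 ± 0.07 and -0.27 ± 0.11 did not pass. Median log2 values of the 18 genes were -0.52 in the interaction, -0.12 in SP and 0.38 in DP.

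Of 12 cardiomyocyte sarcomere genes tested, 4 had a negative interaction and 0 a positive one, beside 2.45% and 1.52% of all genes tested. They were Ryr2, the calcium release channel, Tnnc1 and Tnnt2, cardiac troponins C and T, and Myl4, a myosin light chain of atrium and embryonic heart. The negative count was 5 with blocks within gates, 3 without both high ribosomal RNA libraries and 1 without DP Etv2-negative replicate 2. Tnnc1 (ENSMUSG00000091898, chromosome 14, 31208312 to 31211729, plus strand in mm10) stood at 15.4, 16.9 and 13.9 CPM in SP Etv2-positive cells and 9.86, 7.77 and 8.36 CPM in SP Etv2-negative cells. DP libraries held 24.4, 17.1 and 24.8 CPM in DP Etv2-positive cells and 2.66, 2.71 and 4.81 CPM in DP Etv2-negative cells. Etv2-positive libraries were higher in both gates without overlap, and the DP groups were the highest and the lowest of the 4. It rose by 0.83 ± 0.19 in SP and 2.70 ± 0.21 in DP on the log2 scale, with an interaction of -1.87 ± 0.29 (edgeR quasi-likelihood, Benjamini-Hochberg adjusted p = 0.013).

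The interactions of Ryr2, Tnnt2 and Myl4 were -1.99 ± 0.37, -1.28 ± 0.33 and -1.18 ± 0.28. Levels were low, the list summing to 80.1 to 106 CPM in SP Etv2-positive and 63.4 to 82.5 CPM in SP Etv2-negative cells, against 103 to 120 CPM in DP Etv2-positive and 48.5 to 58.97 CPM in DP Etv2-negative cells. Nppa, Myl2 and Myh7, markers of differentiated heart muscle, reached at most 0.235, 0.112 and 0.31 CPM. Of 12 smooth muscle genes tested Tpm1, a tropomyosin, had a negative interaction (-0.86 ± 0.20), and 6 did with blocks within gates. In the cardiac progenitor list edgeR quasi-likelihood called 0 of 19, limma-voom 0 and DESeq2 2, with 7 genes at an unadjusted p below 0.05 (3 positive, 4 negative) and 3 positive and 3 negative calls with blocks within gates.

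Mesenchyme and matrix genes gave 3 negative interactions among 18 tested, beside 2.45% of all genes tested: Col1a1, the intermediate filament gene Vim and the matrix protein gene Sparc. In the fit with blocks within gates 9 were negative and 3 positive, and the negative count was 1 without both high ribosomal RNA libraries and 0 without DP Etv2-negative replicate 2. Col1a1 (ENSMUSG00000001506, chromosome 11, 94936224 to 94953042, plus strand in mm10) stood at 267, 223 and 178 CPM in SP Etv2-positive cells and 223, 169.5 and 175 CPM in SP Etv2-negative cells. Its DP levels were 354, 382 and 526 CPM in DP Etv2-positive cells and 51.6, 55.4 and 153 CPM in DP Etv2-negative cells. The SP groups overlapped and the DP groups did not, with DP Etv2-negative replicate 3 nearly 3 times as high as the others. Its interaction of -2.04 ± 0.47 (edgeR quasi-likelihood, Benjamini-Hochberg adjusted p = 0.0351) lost its call in 8 of 12 fits that left out a library, with adjusted p up to 0.0969. Dcn, Lum and Lox, matrix genes of fibroblasts, reached at most 0.062, 0.0749 and 0.248 CPM. Gucy1b1 was the called gene among 8 nitric oxide and cGMP genes, of which 3 were positive and 2 negative with blocks within gates.

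Krt18, Itga3, Fzd4, Fgfr2, Fzd10 and Epas1 were chosen after their values were seen. The interaction was negative for Krt18, a simple epithelial keratin, Itga3, an integrin subunit, the Wnt receptor gene Fzd4 and the fibroblast growth factor receptor gene Fgfr2. Their interactions were -1.78 ± 0.34, -1.97 ± 0.40, -1.91 ± 0.48 and -1.90 ± 0.43, each with a called rise in DP. Krt18 stood at 413, 306 and 386 CPM in DP Etv2-positive and 63.1, 67.9 and 133 CPM in DP Etv2-negative cells. Another Wnt receptor gene, Fzd10, had a positive interaction of 1.67 ± 0.29, with a rise of 1.69 ± 0.21 in SP and an effect of 0.01 ± 0.21 in DP. Epas1, which encodes the hypoxia-inducible factor HIF-2alpha, fell in SP, to 6.82, 6.304 and 6.201 CPM in SP Etv2-positive cells against 14.6, 17.2 and 16.2 CPM in SP Etv2-negative cells, and had an interaction of -1.86 ± 0.46.

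The log scale decided the sign for a few genes. Of the 433 negative genes, 429 also had a smaller difference in CPM in SP than in DP, and of the 269 positive genes all 269 had a larger one. The exceptions were Pdgfb, Parm1, Dusp3 and Synj2, named after their values were seen. Pdgfb, a ligand of the PDGF receptors, stood at 37.8, 33.2 and 30.9 CPM in SP Etv2-positive cells and 12.9, 10.9 and 9.18 CPM in SP Etv2-negative cells. Among DP cells there were 18.3, 16.3 and 16.2 CPM in DP Etv2-positive cells and 2.51, 2.02 and 3.06 CPM in DP Etv2-negative cells. It rose more in DP on the log2 scale, with an interaction of -1.11 ± 0.21, yet the rise in CPM was larger in SP, by 8.59 CPM.

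Of 13 paraxial mesoderm genes tested, 9 fell and 1 rose with the reporter in SP, and 12 fell and 1 rose in DP. Over all genes tested 12.4% fell and 13.1% rose in SP, and 14.7% fell and 16.0% rose in DP. Foxc2 and Lfng had a positive interaction, both with a fall in DP and an SP effect that did not pass. The count was 5 with blocks within gates and 1 without both high ribosomal RNA libraries. The list summed to 18.4 to 22.4 CPM in SP Etv2-positive and 56.0 to 89.3 CPM in SP Etv2-negative cells, against 28.6 to 50.6 CPM in DP Etv2-positive and 256 to 332 CPM in DP Etv2-negative cells. Median log2 values of the 13 were 0.74 in the interaction, -2.18 in SP and -2.87 in DP. Of 20 streak and nascent mesoderm genes 9 fell in SP and 16 in DP, and 0 rose in either. For their interaction edgeR quasi-likelihood called 0, limma-voom 0 and DESeq2 0, with 5 at an unadjusted p below 0.05, and 9 were called with blocks within gates. Fgf4 was the called gene of 19 pluripotency genes, of which 3 were positive and 2 negative with blocks within gates.

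Of 14 Wnt genes, the agonist gene Rspo3 had a positive (1.02 ± 0.19) and the antagonist gene Apcdd1 a negative interaction (-0.70 ± 0.17), and with blocks within gates 3 were positive and 3 negative. Rspo3 is uncertain, since 88.2% of its windows were unique and an antisense gene overlaps 13.1% of its exons. Rspo3 stood at 70.02, 87.04 and 108 CPM in SP Etv2-positive cells and 36.4, 49.2 and 44.03 CPM in SP Etv2-negative cells, and at 54.6, 56.8 and 56.3 CPM in DP Etv2-positive cells and 56.5, 58.2 and 51.6 CPM in DP Etv2-negative cells, so that only the SP groups were apart. The gene of the signalling ligand Fgf3, chosen after its values were seen, had an interaction of 1.13 ± 0.18 that passed in all 22 alternatives. Of 24 cell cycle genes, 5 had small positive interactions, between 0.29 and 0.34, beside 1.52% of all genes tested with a positive one. They were the helicase subunit gene Mcm2, the checkpoint kinase gene Bub1 and the mitotic kinase genes Aurka, Plk1 and Aurkb. There were 9 positive and 1 negative with blocks within gates, with DESeq2 7 and 1, and 0 were called without both high ribosomal RNA libraries. Plk1 is uncertain, with 89.3% unique windows and antisense overlap over 7.09% of its exons.

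Other lists held no called interaction. For 16 ETS factor genes edgeR quasi-likelihood called 0, limma-voom 0 and DESeq2 2, with 4 at an unadjusted p below 0.05. Of 20 glycolysis and hypoxia genes 0, 0 and 1 were called by the same 3 tools, with 4 at an unadjusted p below 0.05, and of 13 mitochondrial-encoded genes 0, 0 and 1, with 5. Of 11 endoderm genes 0, 0 and 0 were called, with 2 at an unadjusted p below 0.05, of 5 neuroectoderm genes 0, 0 and 0, with 2, and of 13 dissociation and stress genes 0, 0 and 0, with 1. Over all genes tested, 19.6% had an unadjusted p below 0.05. With blocks within gates 3 ETS factor genes were positive and 1 negative, 2 glycolysis and hypoxia genes positive and 2 negative, 6 mitochondrial-encoded genes and 1 dissociation and stress gene positive, 1 neuroectoderm gene negative, and 0 of the endoderm genes called.

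**Figure D3:**
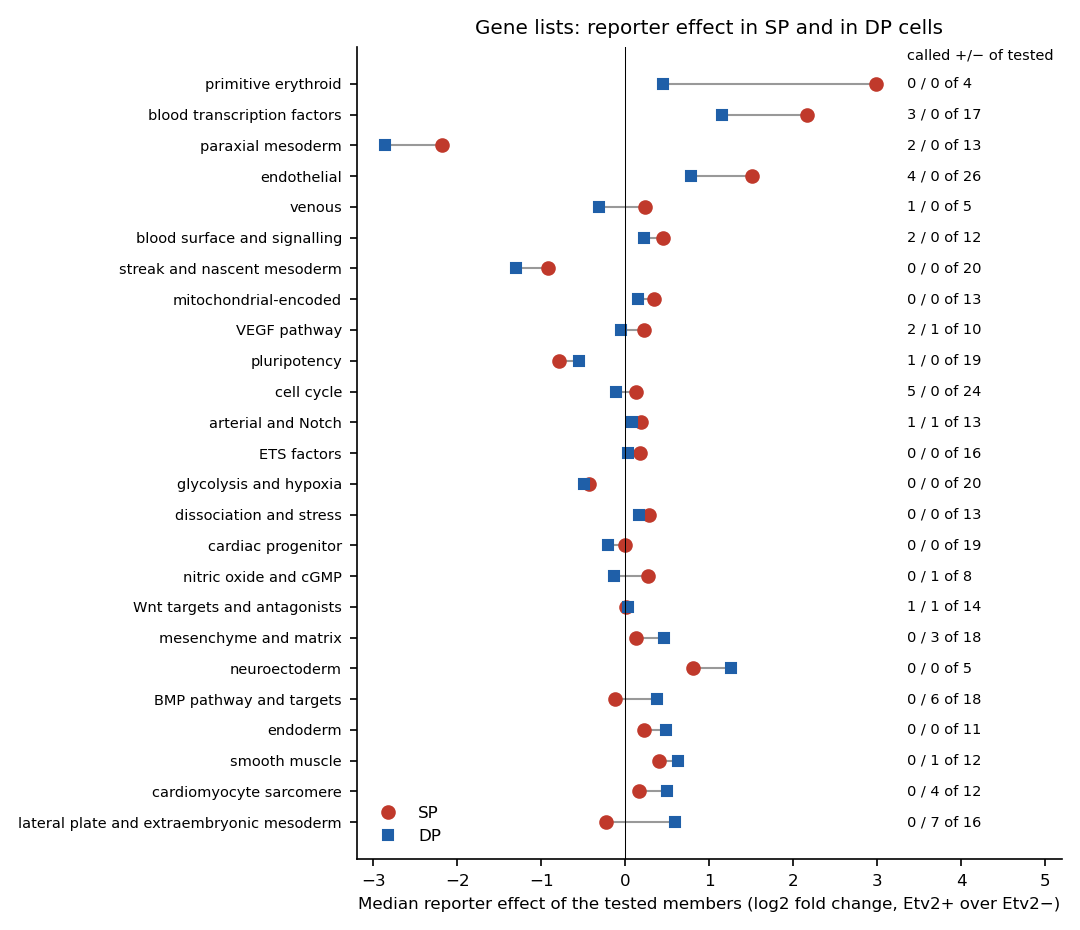
Median reporter effect (log2 fold change of Etv2-positive over Etv2-negative cells) of the tested members of 25 gene lists, as circles for SP and squares for DP; the numbers at the right count positive and negative called interactions of the tested members. Endothelial and blood transcription factor medians are higher in SP (1.51 against 0.78 and 2.16 against 1.15 in DP), while the lateral plate median is -0.23 in SP and 0.59 in DP.

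The second set of libraries, which took no part in the interaction, was examined for the same genes, as a comparison added after the interaction was seen. Of 253 positive genes tested there, 105 (41.5%) were higher and 58 (22.9%) lower in iEtv2 SP than in WT SP cells, beside 26.4% and 24.4% of all 16288 genes tested (edgeR quasi-likelihood, Benjamini-Hochberg adjusted p below 0.05). Of 410 negative genes, 89 (21.7%) were higher and 189 (46.1%) lower. Median log2 changes were 0.16 over the positive and -0.28 over the negative genes. Between the WT gates, 39 positive genes (15.4%) were higher and 70 (27.7%) lower in SP than in DP, and 161 negative genes (39.3%) were higher and 13 (3.17%) lower, beside 9.08% and 6.76% of all genes. These 2 contrasts share the WT SP libraries.

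Of the 75 called genes named, 48 passed with the sign of their interaction in iEtv2 SP over WT SP cells, 14 passed with the opposite sign and 13 did not pass. All 7 called genes of the lateral plate list, all 6 of the BMP list and all 4 of the sarcomere list were lower with induced Etv2, and all 4 of the endothelial list were higher. The 48 and 14 were counted against the interaction. Induced Etv2 was compared within SP, so the like measure is the SP reporter effect, not the interaction. By that measure Smad6, Id3, Tnnc1 and Myl4 went the other way, with called rises of 0.44, 0.43, 0.83 and 0.62 in SP. Tbx2, Foxf1, Hand1 and Msx1 fell and Flt1, Flt4 and Ramp2 rose in SP, as with induced Etv2. The SP effects of the other called genes of these lists did not pass. Outside these lists Parm1 and Tpm1, counted among the 48, also went the other way. They had called rises of 1.52 and 0.62 in SP, against induced changes of -3.51 ± 0.31 and -1.65 ± 0.11. The called blood transcription factor genes were split: Hhex rose, Zfpm1 was lower with a log2 change of -0.58 ± 0.11, and the change of 0.32 ± 0.13 for Gata2 did not pass. Of the matrix list, Vim (0.11 ± 0.12) and Sparc (0.19 ± 0.13) did not pass. Hand1 averaged 19.97 ± 11.4 CPM in iEtv2 SP and 489 ± 20.3 CPM in WT SP cells (SD, n = 3 each), a log2 change of -4.62 ± 0.36 (edgeR quasi-likelihood, Benjamini-Hochberg adjusted p = 2.25e-06). Tbx2 changed by -5.93 ± 0.27, Foxf1 by -6.49 ± 0.33, and Col1a1 by -5.08 ± 0.39. Dysf averaged 175 ± 14.8 CPM in iEtv2 SP and 13.1 ± 1.76 CPM in WT SP cells, a change of 3.74 ± 0.14. Flt1, She and Notch1 rose by 2.47 ± 0.22, 2.59 ± 0.10 and 1.46 ± 0.14.

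The 14 with a sign opposite to that of their interaction were the following. Wnt2b, Rspo3, Fgf3, Aplnr, Adra2a, Mycn, Sall3, Zfpm1 and Aurka, with positive interactions, were lower with induced Etv2, with log2 changes of -2.30 ± 0.25, -2.41 ± 0.19, -3.48 ± 0.23, -1.22 ± 0.22, -1.04 ± 0.33, -1.06 ± 0.07, -0.83 ± 0.23, -0.58 ± 0.11 and -0.28 ± 0.11. Slc40a1, Epas1, Itga3, Pdgfb and Pkp2, with negative interactions, rose by 1.69 ± 0.22, 1.36 ± 0.20, 2.28 ± 0.29, 0.80 ± 0.19 and 0.57 ± 0.18. By the SP reporter effect Pdgfb was not opposite, since it rose there by 1.63 ± 0.14. Rspo3, Fgf3, Mycn, Sall3, Zfpm1, Aurka, Slc40a1 and Epas1 had called SP effects opposite to their induced changes. The SP effects of Wnt2b, Aplnr, Adra2a, Itga3 and Pkp2 did not pass. Foxc2 rose by 2.01 ± 0.30 with induced Etv2 and was lower in WT SP than in WT DP cells, with a log2 difference of -2.32 ± 0.30.

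**Figure D4:**
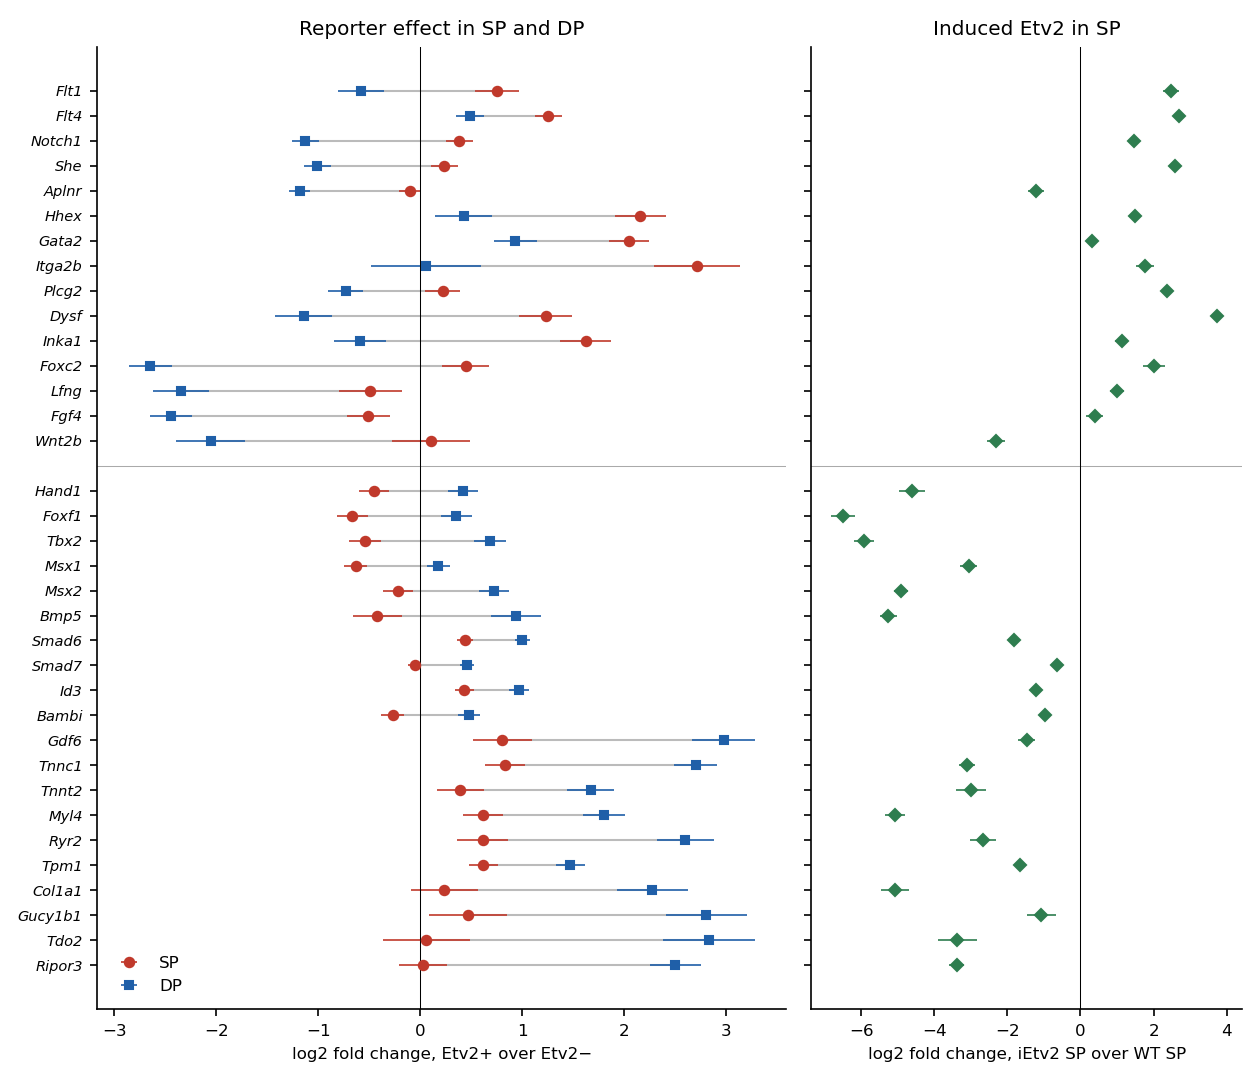
Log2 fold changes of 35 genes with a called interaction: left, Etv2-positive over Etv2-negative cells in SP (circles) and DP (squares); right, iEtv2 SP over WT SP cells (diamonds). Bars are standard errors; genes above the grey line have a positive interaction (for example Flt1, 0.76 in SP and -0.58 in DP, 2.47 with induced Etv2) and those below it a negative one (Hand1, -0.45, 0.42 and -4.62).

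The number of calls depended on single libraries. Leaving out SP Etv2-positive replicate 1, 2 or 3 gave 493, 188 and 190 called genes, and leaving out SP Etv2-negative replicate 1, 2 or 3 gave 143, 367 and 162. Without DP Etv2-positive replicate 1, 2 or 3 there were 697, 687 and 211, and without DP Etv2-negative replicate 1, 2 or 3 there were 114, 50 and 1268. Of the 50 genes called without DP Etv2-negative replicate 2, 48 were among the 702. Of the 75 called genes named here, 16 passed in all 22 alternatives, among them Foxc2, Notch1, She, Aplnr, Ripor3 and Tnnc1, and the least stable, Bub1, passed in 7. At the threshold, Gpc3 (-0.46), Hoxb1 (0.57) and Bpifb5 (-2.23) had the highest adjusted p among called genes, and Pxmp2 (-0.83), Tppp (-1.55) and Thra (-0.52) the lowest among the others.

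**Figure D5:**
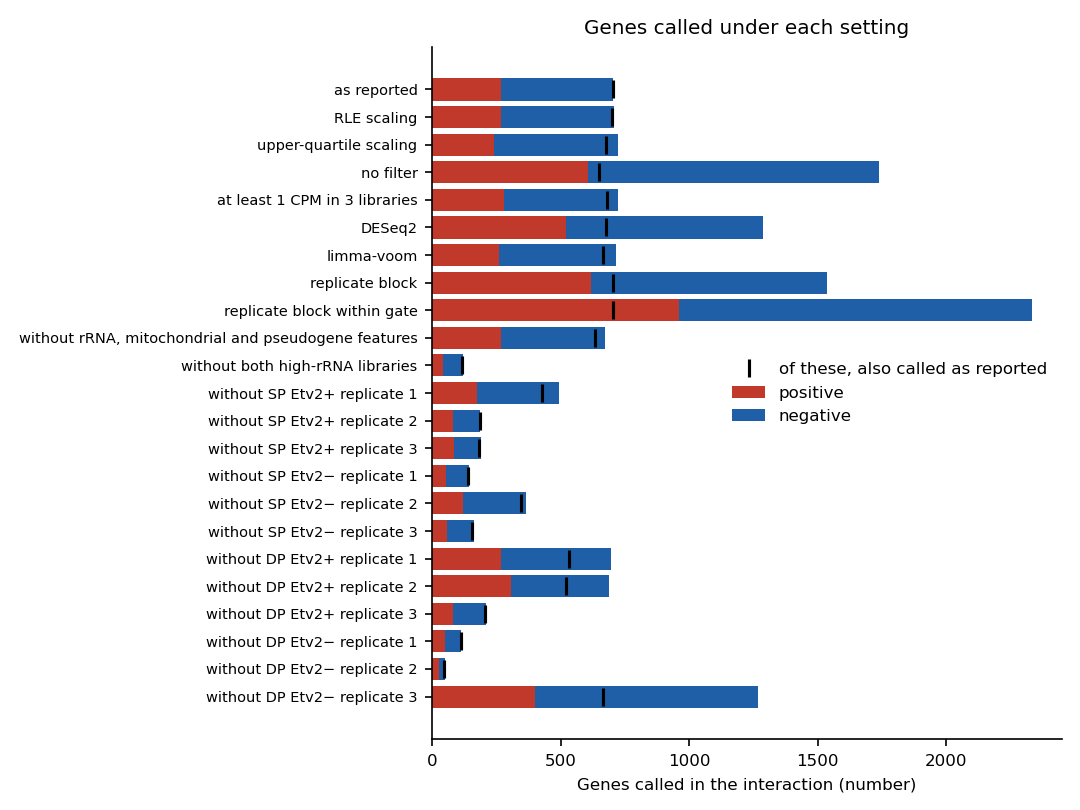
Number of genes called in the interaction as reported and under 22 alternative settings; bars are split into positive and negative interactions, and the black tick marks how many of them are also among the 702 reported. Counts ran from 50 without DP Etv2-negative replicate 2 to 2334 with replicates as blocks within gates.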

How the data were processed

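RNA-seq of sorted day 4 embryoid body cells was read as deposited raw counts per gene from the authors, with the build mm10 and featureCounts named in the submitters' processing notes and labels. The aligner, the version and the strand setting were not given in the sources used here. For the 9 WT and iEtv2 libraries the files end in entries that name no gene, in the style of another counter, and this 22.43% to 25.12% of reads was left out.

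Genes were kept by filterByExpr, and a model with 1 mean for each of the 4 groups was fitted to all 12 libraries with edgeR 4.0.16 (R 4.3.3, TMM scaling, quasi-likelihood test), p-values being adjusted over all genes tested (threshold 0.05). Reported errors of log2 values are standard errors, and CPM are TMM-scaled. Alternatives were other scalings, filters, DESeq2 1.42.0, limma-voom (limma 3.58.1), replicate blocks, fewer features and each library left out. Checks on simulated counts with known interactions were run first. They recovered 37.3% of genes changed 1.5-fold, 68.7% of those changed 2-fold and 95.5% of those changed 4-fold. False calls numbered 14, or 9.46% of the simulated calls, more than the threshold of 0.05 allows for. A list without a call may therefore still hold smaller interactions.

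Genes were named by rule (57): Etv2, Kdr, Pdgfra and T, the 12 largest called interactions in each direction with a mean of at least 5 CPM in some group and numbered differences that did not overlap between gates, up to 4 called genes per list, and called members against the direction of their list. Predicted genes and those of ribosomal proteins, mitochondria and small RNAs were passed over by symbol. Another 16 genes, and 6 called list members, were chosen after their values were seen. Members and lists were chosen with earlier results of these data known. Some genes lie on 2 lists (16 of 390), and 48 list genes were too low to be tested. The second set was fitted in the same way, as an addition made after the interaction was seen.

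Same-numbered Etv2-positive and Etv2-negative libraries deviated together in each gate (correlation 0.143 to 0.268 in SP and 0.175 to 0.342 in DP), so the counts of the fit with replicates as blocks within gates are given beside those reported. Floors of 3 counts cover counting error only.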

Additional observations from a re-analysis of the deposited data

Results flagged for a closer look

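Each of the 75 genes described with a called interaction is listed here, other than those given only at the threshold or for their sign in CPM, because its reporter effect differed between SP and DP by a test of the difference itself (edgeR quasi-likelihood, Benjamini-Hochberg adjusted p below 0.05). In all, 702 genes met that criterion. Values are interactions on the log2 scale.

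Among ligands and receptors with a negative interaction, the value was -2.17 for Gdf6, -1.91 for Fzd4, -1.90 for Fgfr2, -1.36 for Bmp5, -1.11 for Pdgfb, -0.98 for Vegfc, -0.75 for Bambi, -0.70 for Apcdd1 and -0.59 for Unc5b. Among transcription factors and inhibitory Smads it was -1.86 for Epas1, -1.22 for Tbx2, -1.02 for Foxf1, -0.94 for Msx2, -0.87 for Hand1, -0.81 for Msx1, -0.56 for Smad6, -0.54 for Id3 and -0.51 for Smad7. Contractile and calcium-handling genes had -1.99 (Ryr2), -1.87 (Tnnc1), -1.28 (Tnnt2), -1.18 (Myl4) and -0.86 (Tpm1).

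Matrix, adhesion and cytoskeleton genes had -2.10 (Col8a2), -2.04 (Col1a1), -2.01 (Pkp2), -1.97 (Itga3), -1.78 (Krt18), -1.70 (Ahnak), -0.62 (Vim) and -0.54 (Sparc). Enzymes, transporters and others had -2.77 (Tdo2), -2.65 (Prrt4), -2.54 (Spin2c), -2.48 (Ripor3), -2.43 (Extl1), -2.34 (Gucy1b1), -2.12 (Rem1), -2.00 (Slc1a6), -1.73 (Parm1), -1.49 (Slc40a1) and -0.91 (Peg10).

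Transcription and chromatin genes with a positive interaction had 3.09 (Foxc2), 1.73 (Hhex), 1.48 (Nfatc1), 1.12 (Gata2), 1.01 (Phf6), 0.88 (Sall3), 0.81 (Mycn) and 0.58 (Zfpm1). Ligands, receptors and surface proteins had 2.65 (Itga2b), 2.34 (Adra2a), 2.16 (Wnt2b), 1.93 (Fgf4), 1.87 (Scube2), 1.72 (Lrrc4), 1.68 (Ramp2), 1.67 (Fzd10), 1.51 (Notch1), 1.33 (Flt1), 1.29 (F2r), 1.13 (Fgf3), 1.08 (Aplnr), 1.02 (Rspo3) and 0.77 (Flt4). Enzymes and other intracellular proteins had 2.37 (Dysf), 2.21 (Inka1), 1.85 (Lfng), 1.24 (She), 0.95 (Plcg2), 0.34 (Aurkb), 0.32 (Plk1), 0.30 (Aurka), 0.30 (Bub1) and 0.29 (Mcm2).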

How the results depend on the processing

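The interaction was called for 1740 genes without a filter on low counts (605 positive, 1135 negative), for 1289 with DESeq2 (519 and 770), for 2334 with replicates as blocks within gates (960 and 1374), for 119 without both libraries of high ribosomal RNA share (44 and 75), and for 269 at a difference of at least 2-fold (86 and 183), against 702 as reported (269 and 433). Leaving out a library gave between 50 and 1268 genes, with 25 to 402 positive and 25 to 866 negative ones. The cause of these differences was not tested. A replicate number shared as a block by both gates gave 1537 genes (618 and 919). Across gates, same-numbered libraries correlated at 0.077 to 0.269 among Etv2-positive and 0.096 to 0.334 among Etv2-negative cells, each library best with its own number, which is a hint from the data and not from the design, and neither block ended the call of any of the 75 called genes named. With upper-quartile scaling 33.5% of the called genes were positive, against 38.3% as reported. The other scalings, filters and limma-voom, and the fit without ribosomal, mitochondrial and pseudogene features, gave 673 to 725 genes. Without both libraries of high ribosomal RNA share 2459 genes were called for the reporter effect in SP, against 4504, with 1286 for the reporter effect in SP, positive, and 1173 for the reporter effect in SP, negative. Leaving out a library gave 3232 to 5270 genes for the reporter effect in SP and 4022 to 5455 for the reporter effect in DP. In the second set, leaving out a library gave 45 to 84 positive genes lower in WT SP than in WT DP (45 without WT SP replicate 1, against 70) and 7 to 13 negative ones (7 without WT SP replicate 1, against 13). No interaction of a named gene changed sign in any of the 22 alternatives, the 541 weaker and 114 stronger values over all named genes and contrasts being changes of threshold side alone. Of the 75 called genes, 59 lost the call without DP Etv2-negative replicate 2 and 2 without DP Etv2-negative replicate 3. Genes near the floor of 3 counts, 0.0904 to 0.118 CPM, could not be compared at this depth.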
